A study of Rattus norvegicus with 6 samples.

Results

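The genes for the subunits of condensin and cohesin, the ring-shaped ATPases that shape and hold chromosomes, were examined in primary rat nucleus pulposus cells, which come from the soft centre of the intervertebral disc, with and without serum. They were chosen by gene symbol: Smc2, Smc4, Ncapd2, Ncapd3, Ncapg, Ncapg2, Ncaph, Ncaph2, Smc1a and Smc3. Of these 10 symbols, 9 stood on a row of the deposited tables, out of 17093 genes in all, and Ncaph was not analysed here. RNA was sequenced after removal of ribosomal RNA in 6 libraries. The serum-starved group (n = 3) spent 48 h without fetal bovine serum, and the control group (n = 3) was kept in medium with 10% serum, also with a time label of 48 h. Both groups were primary cells from male rats at passages 3 to 6, and no strain, age or genotype is labelled. The labels do not say whether the libraries of a group are separate animals or separate cultures, so every p-value measures the spread between these libraries only, which may be technical.

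Condensin folds chromatin into loops and so compacts chromosomes for mitosis, while cohesin holds sister chromatids together from S phase to anaphase and also forms the loops of interphase chromatin. Condensin I and condensin II share the SMC ATPases encoded by Smc2 and Smc4 and differ in their other subunits: the HEAT-repeat proteins of Ncapd2 and Ncapg and the kleisin of Ncaph belong to condensin I, those of Ncapd3, Ncapg2 and Ncaph2 to condensin II. Condensin I reaches chromosomes after the nuclear envelope breaks down, whereas condensin II is nuclear throughout the cell cycle. The SMC proteins of cohesin are encoded by Smc1a and Smc3, and cohesin is also needed in cells that do not divide. Genes of late cell cycle stages often carry a CHR element, with a nearby CCAAT box, through which the DREAM complex represses them in resting cells and MuvB with MYBL2 and FOXM1 activates them in cycling cells.

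Because several of these genes moved together, their promoters were read in the RefSeq promoter table of build GRCr8, which holds 250 bases before and 50 bases after each gene's start and matched 9 of the 9 genes. Shown are the 180 bases before the start of Ncapg, Ncapd2, Smc2, Smc4, Ncapg2 and Smc3. The first 4, of which Smc2 and Smc4 are shared by both condensins, all carry the letters TTTGAA on one strand. Ncapg2 and Smc3 carry none of the motifs searched, and neither does Ncapd3, which is not shown. Each run reads 5′ to 3′ on the gene's strand, and capitals mark matches of TTTGAA (seen as TTCAAA where it lies on the other strand) and CCAAT (seen as ATTGG where it lies on the other strand).
Ncapg, chr14:69645446-69645625, minus strand: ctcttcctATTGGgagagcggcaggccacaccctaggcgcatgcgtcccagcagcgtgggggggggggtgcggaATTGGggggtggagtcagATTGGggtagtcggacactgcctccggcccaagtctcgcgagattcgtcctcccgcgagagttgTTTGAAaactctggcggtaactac
Ncapd2, chr4:159677939-159678118, minus strand: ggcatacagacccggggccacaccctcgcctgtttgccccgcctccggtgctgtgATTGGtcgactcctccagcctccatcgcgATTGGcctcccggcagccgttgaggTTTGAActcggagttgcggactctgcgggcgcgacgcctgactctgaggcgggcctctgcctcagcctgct
Smc2, chr5:71602225-71602404, plus strand: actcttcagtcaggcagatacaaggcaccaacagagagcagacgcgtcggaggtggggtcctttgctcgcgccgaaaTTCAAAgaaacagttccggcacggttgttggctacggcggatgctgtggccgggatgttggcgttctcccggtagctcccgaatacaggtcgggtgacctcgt
Smc4, chr2:155550082-155550261, plus strand: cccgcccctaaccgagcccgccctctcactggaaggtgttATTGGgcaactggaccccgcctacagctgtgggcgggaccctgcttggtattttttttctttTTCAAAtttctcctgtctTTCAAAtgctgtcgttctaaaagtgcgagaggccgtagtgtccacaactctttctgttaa
Ncapg2, chr6:143485764-143485943, plus strand: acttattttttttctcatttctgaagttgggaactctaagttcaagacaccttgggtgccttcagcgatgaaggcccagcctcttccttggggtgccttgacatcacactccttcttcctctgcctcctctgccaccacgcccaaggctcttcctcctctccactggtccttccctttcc
Smc3, chr1:262606911-262607090, plus strand: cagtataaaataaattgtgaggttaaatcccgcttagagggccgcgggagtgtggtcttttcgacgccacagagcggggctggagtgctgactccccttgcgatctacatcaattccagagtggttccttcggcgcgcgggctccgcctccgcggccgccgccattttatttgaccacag

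The CHR letters searched were TTTGAA and TTCGAA on both strands, and the E2F letters TTTGGCGC, TTTCCCGC and TTCCCGCC, of which the last and TTTCCCGC can overlap. Over the whole 300-base window a CHR match was found in 5 of the 9 promoters, against 13.7% of 10267 promoters of genes tested here and 19.7% of all 33469 in the table. Counted from the start, TTTGAA began at -24 in Ncapg, -71 in Ncapd2, -103 in Smc2 and at both -78 and -60 in Smc4, while Ncaph2 held TTCGAA at -66. A CCAAT match was found in 5 of 9 as well (Smc2, Smc4, Ncapd2, Ncapg and Smc1a), against 37.8% of tested genes. The 3 CCAAT matches of Ncapg began at -172, -106 and -88, and those of Ncapd2 at -125, -96 and 5. In Smc2 the single CCAAT match began at -248, outside the run shown. E2F letters were found in Ncaph2 and Smc1a, against 5.97% of tested genes. In serum-starved cells the genes with a CHR match were lower 16.5-fold (Ncapg), 6.81-fold (Ncapd2), 3.88-fold (Smc2), 1.85-fold (Smc4) and 1.35-fold (Ncaph2). Those without one were lower 4.99-fold (Ncapg2), 3.15-fold (Ncapd3), 1.31-fold (Smc1a) and 1.14-fold (Smc3, which did not pass the test). A link between the letters and the changes was not tested. These matches describe letters in a window and no binding was measured.

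All 7 condensin genes in the tables were lower in serum-starved cells, between 1.35-fold (Ncaph2) and 16.5-fold (Ncapg). Of the cohesin SMC genes, Smc1a was 1.31-fold lower, and Smc3 did not pass the test. Together 8 of the 9 genes fell, where 29.4% of all 11493 tested genes fell and 61.1% changed in either direction, and the median log2 fold change of the 9 was -1.38 against 0.03 over all tested genes. A called log2 fold change at or below -1 was reached by 5 of the 9 (Smc2, Ncapd2, Ncapg, Ncapd3 and Ncapg2) and by 7.18% of tested genes. Values are the deposited ones, treated as FPKM, a level per transcript length and per library depth, and are given as mean ± SD (n = 3). Folds are ratios of mean values. Each log2 fold change is the serum-starved mean of log2(value + 1) less that of the controls, a scale that understates the change of low genes, and SE is its standard error. A gene rose or fell at an adjusted p of at most 0.05 in limma, with Benjamini-Hochberg adjustment over all tested genes. A gene was tested if its value was at least 1 in at least 3 libraries; all 9 genes were, but Ncapg only through its controls, since it was below 1 in every serum-starved library. In these bulk samples fewer cells of a type and less RNA per cell cannot be told apart.

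**Figure D1:**
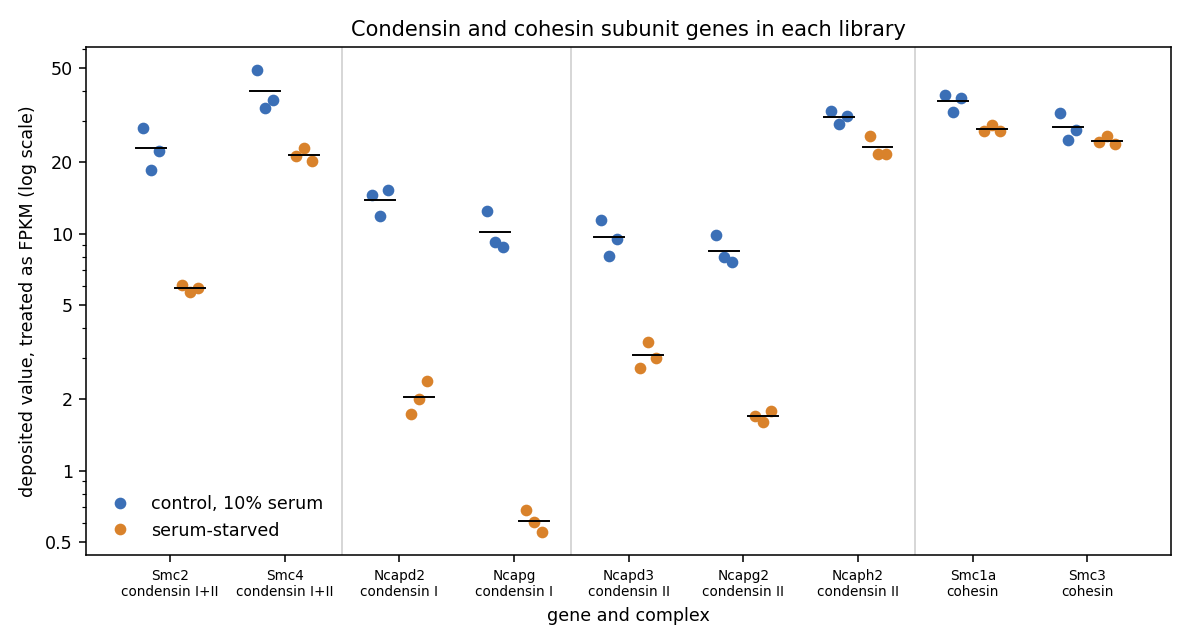
Deposited value (treated as FPKM, log axis) of the 9 subunit genes in each of the 6 libraries, control in blue and serum-starved in orange, with a black line at each group mean (n = 3). Within each gene the libraries stand in the order of their replicate numbers, which has no known meaning. Only Smc3 has groups that overlap, and Ncapg shows the widest gap.

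The 2 analysed genes of subunits found in condensin I only had the lowest log2 fold changes of the 9 genes. Ncapg, which encodes the HEAT-repeat subunit CAP-G, had values of 12.43, 9.21 and 8.75 with serum, against 0.68, 0.61 and 0.55 without it. Its mean went from 10.1 ± 2.01 to 0.613 ± 0.0651, a log2 fold change of -2.77 ± 0.13 (SE; limma, Benjamini-Hochberg adjusted p = 9.55e-07). Every serum-starved value lay far below every control value, and only 1.02% of tested genes had a lower log2 fold change. Ncapd2, which encodes the other HEAT-repeat subunit, CAP-D2, was at 14.53, 11.83 and 15.34 in control and at 1.73, 2.01 and 2.38 in serum-starved libraries. It fell 6.81-fold, with a log2 fold change of -2.29 ± 0.12 (SE; limma, Benjamini-Hochberg adjusted p = 1.73e-06), again without overlap between the groups.

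The SMC genes shared by both condensins also fell, but by different amounts. Smc2 had values of 27.86, 18.61 and 22.23 with serum and 6.1, 5.7 and 5.9 without it, 3.88-fold lower (log2 fold change -1.77 ± 0.13 SE; limma, Benjamini-Hochberg adjusted p = 1.06e-05). Smc4, whose product pairs with that of Smc2 in every condensin, was at 48.83, 33.99 and 36.66 in control and at 21.31, 22.91 and 20.33 in serum-starved libraries, 1.85-fold lower (log2 fold change -0.84 ± 0.13 SE; limma, Benjamini-Hochberg adjusted p = 0.000578). Neither gene had overlapping groups. The ratio of Smc4 to Smc2 within a library, which does not depend on how libraries are scaled, was 1.75, 1.83 and 1.65 in control and 3.49, 4.02 and 3.45 in serum-starved libraries. The RNA values of this obligate pair stood at 1.74 ± 0.0891 to 1 with serum and at 3.65 ± 0.318 to 1 without it. Protein amounts were not measured. The ratio was chosen, like the other within-complex and paralog ratios outside the planned pairs, after values were seen, and was not tested.

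Condensin II was split. Ncapg2, the counterpart of Ncapg that encodes CAP-G2, was at 9.9, 7.96 and 7.56 in control and at 1.7, 1.6 and 1.79 in serum-starved libraries, 4.99-fold lower (log2 fold change -1.81 ± 0.11 SE; limma, Benjamini-Hochberg adjusted p = 3.46e-06). Ncapd3, the counterpart of Ncapd2, was at 11.46, 8.03 and 9.51 and at 2.72, 3.48 and 3.0 in the same order, 3.15-fold lower (log2 fold change -1.38 ± 0.13 SE; limma, Benjamini-Hochberg adjusted p = 4.25e-05). Both had groups well apart. Ncaph2, which encodes the kleisin that closes the condensin II ring, moved far less: it was at 32.88, 29.02 and 31.51 in control and at 25.82, 21.79 and 21.71 in serum-starved libraries. Its fall was 1.35-fold (log2 fold change -0.42 ± 0.09 SE; limma, Benjamini-Hochberg adjusted p = 0.00327), with no overlap, although 20.1% of tested genes had a lower log2 fold change. The RNA value of Ncaph2 was 3.71 ± 0.427 times that of Ncapg2 with serum and 13.6 ± 1.53 times without it, for 2 genes of one complex.

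Cohesin SMC genes moved less than the condensin genes other than Ncaph2. The change of Smc1a, with a 95% interval from -0.55 to -0.20, was close to that of Ncaph2 (-0.42). Smc1a was at 38.61, 32.69 and 37.46 in control and at 27.03, 28.82 and 27.08 in serum-starved libraries, without overlap (log2 fold change -0.38 ± 0.08 SE; limma, Benjamini-Hochberg adjusted p = 0.00317). Smc3 was at 32.16, 24.8 and 27.27 in control and at 24.36, 25.71 and 23.92 in serum-starved libraries, and its groups overlapped. For Smc3 the log2 fold change was -0.17 with a 95% interval from -0.39 to 0.04 (limma, Benjamini-Hochberg adjusted p = 0.145), an interval that lies above the estimates of all 7 condensin genes but overlaps the interval of Ncaph2, which runs from -0.62 to -0.22. When each library was scaled to a common sum of 1000000, Smc1a was at -0.19 (limma, Benjamini-Hochberg adjusted p = 0.0789) and no longer passed, and Smc3 turned to 0.01. That scaling raised the median log2 fold change of all tested genes by 0.19 and lowered the share of falls among all called genes from 48.2% to 30.2%; the 7 condensin genes fell under it too, and under median-ratio scaling and quantile normalization the 8 calls held.

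**Figure D2:**
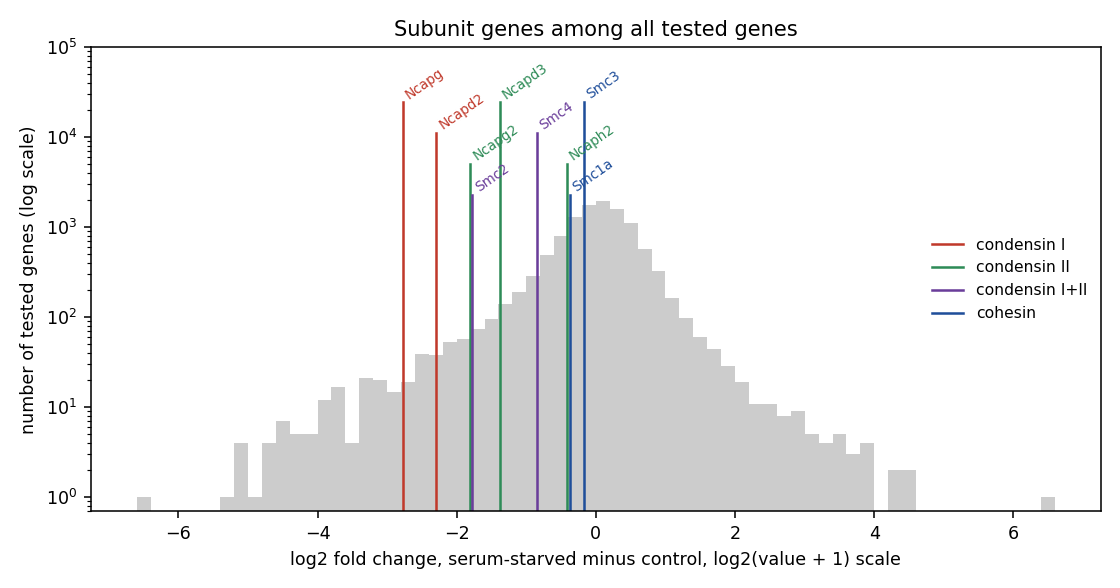
Number of tested genes (log axis) by log2 fold change, serum-starved minus control, in grey, with a coloured line at each of the 9 subunit genes, coloured by complex. The condensin I lines stand at -2.77 and -2.29 in the left tail, while Smc1a, Smc3 and Ncaph2 stand within the bulk of all genes, at -0.38, -0.17 and -0.42.

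Groups that did not overlap, with the serum-starved libraries lower, were seen for 8 of the 9 genes and for 32.5% of all tested genes. The opposite arrangement, seen for 35.7% of tested genes, was seen for none of the 9. Among the controls, replicate 1 was the highest library for 8 of the 9 genes and replicate 2 the lowest for 7, whereas replicate 1 was the highest control for 36.9% of tested genes. Without control replicate 1, as without any other single library, 8 of the 9 genes fell (limma, Benjamini-Hochberg), and Smc3 did not pass.

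The order of the subunit genes by level changed between the groups. In control cells the order of mean values was Smc4, Smc1a, Ncaph2, Smc3, Smc2, Ncapd2, Ncapg, Ncapd3 and Ncapg2, from 39.8 to 8.47. In that order, only Smc2 and Ncapd2 were neighbours whose libraries did not overlap. In serum-starved cells the order was Smc1a, Smc3, Ncaph2, Smc4, Smc2, Ncapd3, Ncapd2, Ncapg2 and Ncapg, from 27.6 to 0.613. There the neighbours Smc3 and Ncaph2, Ncaph2 and Smc4, and Ncapd2 and Ncapg2 overlapped, and the other 5 steps did not. The 9 genes spanned a 4.7-fold range of means with serum and a 45.1-fold range without it. The wider range reaches down to Ncapg, which was below 1 in every serum-starved library, so its size is imprecise. Smc4 went from the first place to the fourth, Ncapd2 went below its condensin II counterpart Ncapd3, and Ncapg went below Ncapg2.

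Since condensin I and condensin II subunits are paralogs, each pair was compared within every library. The ratio of Ncapd2 to Ncapd3 was 1.27, 1.47 and 1.61 in control and 0.636, 0.578 and 0.793 in serum-starved libraries. Ncapg to Ncapg2 gave 1.26, 1.16 and 1.16 in control and 0.4, 0.381 and 0.307 in serum-starved libraries. In both pairs the condensin I gene was thus the higher one in every control library and the lower one in every serum-starved library. On the log2(value + 1) scale the Ncapd2 to Ncapd3 difference shifted by -0.91 (SD within groups 0.16) and the Ncapg to Ncapg2 difference by -0.97 (SD within groups 0.08). The pseudocount bears on the second most: the mean ratios themselves differed 2.17-fold for the first pair and 3.28-fold for the second, and with a pseudocount of 0.1 the shifts were -1.10 and -1.58. An exact two-sided permutation test over the libraries gave p = 0.1 for each pair, which is the smallest p that 3 against 3 libraries allow, and 0.1 after Benjamini-Hochberg adjustment over the 2 pairs, so neither can pass at 0.05. The third pair, Ncaph to Ncaph2, was not analysed here.

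**Figure D3:**
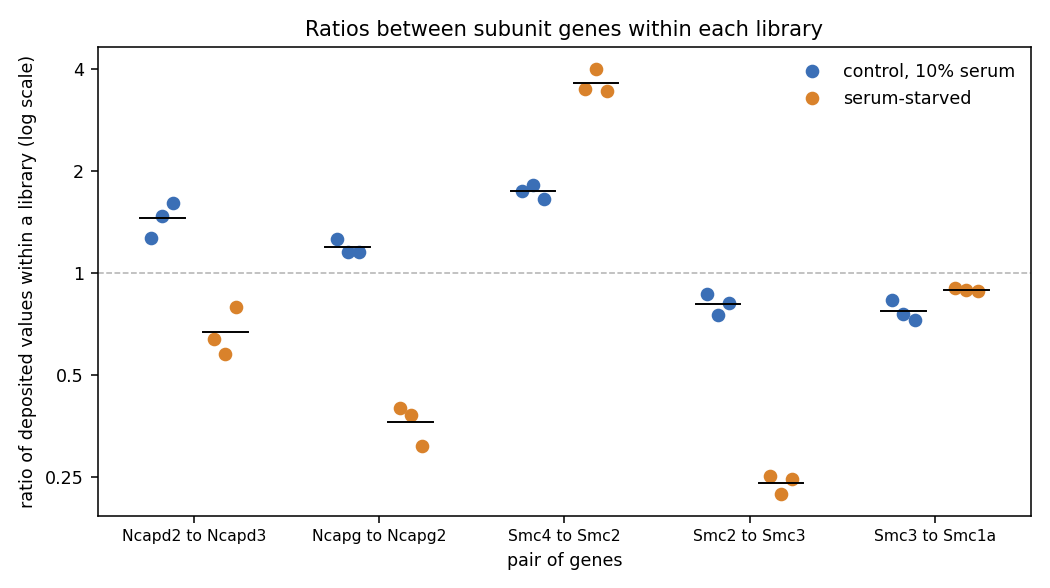
Ratio of 2 deposited values within a library (log axis) for 5 pairs of subunit genes, with 3 control libraries in blue, 3 serum-starved libraries in orange, a black line at each mean and a dashed line at a ratio of 1. Both pairs of condensin I to condensin II subunits cross the dashed line between the groups, from 1.45 to 0.669 and from 1.19 to 0.363 on average, and Smc4 to Smc2 goes from 1.74 to 3.65.

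The relative make-up of the SMC genes shifted from condensin to cohesin. The cohesin genes did not rise in value: Smc1a went from 36.25 to 27.64 and Smc3 from 28.08 to 24.66 on average. Their shares grew because Smc2 and Smc4 went down more. Of the summed values of Smc2, Smc4, Smc1a and Smc3, Smc2 made up 17.9% ± 0.996 with serum and 7.41% ± 0.484 without it (n = 3 each). The share of Smc4 was 31.2% ± 1.75 and 27.0% ± 0.619, a smaller step. Smc1a went from 28.7% ± 2.22 to 34.7% ± 0.381 and Smc3 from 22.1% ± 0.364 to 30.9% ± 0.0314. Each of the 4 shares had groups that did not overlap, and a share has no dependence on the scaling of libraries. Within cohesin, Smc3 stood at 0.773 ± 0.0540 times Smc1a with serum and at 0.892 ± 0.00896 times without it. These shares are descriptions, with no test.

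**Figure D4:**
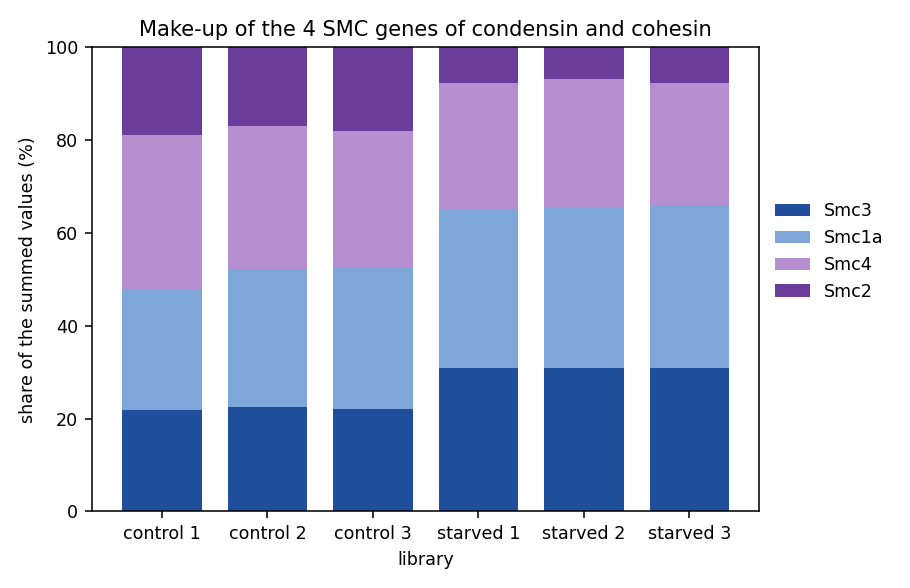
Share of each of the 4 SMC genes in their summed deposited values (%), stacked to 100% for each library. The dark purple part, Smc2, shrinks from 16.9% or more in each control library to 7.74% or less in each serum-starved library. The blue parts, the cohesin genes Smc1a and Smc3, grow as shares, although their mean values did not rise.

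The other cohesin core genes moved little. Rad21, the kleisin of mitotic cohesin, was 1.25-fold lower, from 104 ± 7.08 to 83.8 ± 5.56 (log2 fold change -0.31 ± 0.08 SE; limma, Benjamini-Hochberg adjusted p = 0.00728), but it did not pass under the common-sum scaling (-0.12, adjusted p = 0.229) or by quantile normalization (-0.16, adjusted p = 0.121). Stag1, one of the alternative HEAT-repeat subunits, rose 1.22-fold to 12.3 ± 0.468 (limma, Benjamini-Hochberg adjusted p = 0.0156, and 0.0549 without serum-starved replicate 2 or 0.0648 without control replicate 2). Its more abundant counterpart Stag2 was at 20.2 ± 2.73 with serum and 23.0 ± 1.84 without it and did not pass (limma, Benjamini-Hochberg adjusted p = 0.157), though it did under the common-sum scaling (0.37, adjusted p = 0.016) and without control replicate 1 (0.28, adjusted p = 0.0253). The meiotic genes Stag3 and Smc1b were at or below 0.17 in every library and were not tested, and Rec8 and Rad21l1 were not analysed here.

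Loading genes rose while release genes did not pass. Nipbl, which encodes the cohesin loader, was at 11.5 ± 0.550 with serum and at 16.4 ± 1.62 without it, 1.42-fold higher (limma, Benjamini-Hochberg adjusted p = 0.00159), and its partner Mau2 was at 7.20 ± 0.493 and 11.6 ± 1.06, 1.61-fold higher (limma, Benjamini-Hochberg adjusted p = 0.000498). Genes higher in serum-starved cells made up 31.7% of all tested genes. Wapl, which opens the ring, and Pds5a and Pds5b, which bind it and regulate its release, had log2 fold changes of -0.03, -0.01 and 0.03, with 95% intervals that lay between -0.22 and 0.27. Ctcf, which stops cohesin at loop anchors, rose 1.20-fold to 22.0 ± 0.261 (limma, Benjamini-Hochberg adjusted p = 0.00919), and Smchd1, a chromatin protein with an SMC hinge, did not pass.

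Genes that act on cohesin around replication and mitosis fell far more than cohesin itself. Of 8 such genes 6 fell, against 29.4% of all tested genes, while Esco1 rose and Hdac8 did not pass. Their median log2 fold change was -2.48. Esco2, the acetyltransferase that establishes cohesion in S phase, was at 9.19, 6.19 and 6.9 in control and at 0.47, 0.37 and 0.31 in serum-starved libraries, 19.4-fold lower. Its paralog Esco1, which acetylates cohesin through interphase, went the other way, from 5.62, 4.42 and 3.67 to 7.02, 7.88 and 7.02, 1.60-fold higher (log2 fold change 0.59 ± 0.13 SE; limma, Benjamini-Hochberg adjusted p = 0.00415). The order of the paralogs was thus opposite in the groups, with Esco2 at 1.64 ± 0.240 times Esco1 with serum and at 0.0527 ± 0.0124 times without it. Cdca5, the gene of sororin, which guards acetylated cohesin, was 9.08-fold lower. The shugoshin genes Sgo1 and Sgo2, which protect centromeric cohesin, were 18.2-fold and 33.9-fold lower. Espl1, the gene of separase, which cuts the kleisin at anaphase, was 52.6-fold lower, and Pttg1, the gene of its inhibitor securin, was 65.1-fold lower, from 64.9 ± 4.85 to 0.997 ± 0.350. Esco2, Sgo1, Sgo2 and Espl1 were below 1 in every serum-starved library, so they passed the filter through the controls and their ratios are imprecise. Cdca5 and Pttg1 were below 1 in some serum-starved libraries, and their ratios are imprecise too. Hdac8, which removes the acetyl mark, was at 7.07 ± 0.323 and 7.95 ± 0.652 and passed under the common-sum scaling (0.34, adjusted p = 0.00874) and with library weights (0.19, adjusted p = 0.0419).

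Regulators and partners of condensin on mitotic chromosomes fell in 8 of 9 cases, with a median log2 fold change of -3.67, and Top2b rose. Among all 11493 tested genes 29.4% fell, and the median was 0.03. Top2a, the topoisomerase that works with condensin in mitosis, was 55.7-fold lower, from 48.8 ± 8.55 to 0.877 ± 0.182, while its paralog Top2b went up 1.55-fold, reaching 29.4 ± 1.63 from 18.9 ± 0.975 (limma, Benjamini-Hochberg adjusted p = 0.000144). Kif4a, a chromokinesin that binds condensin I, was 42.0-fold lower, and Mki67, which coats mitotic chromosomes, was 34.1-fold lower. All 3 had lower log2 fold changes than every condensin subunit. The kinase genes Plk1 and Aurkb, whose products phosphorylate condensin, were 46.7-fold and 24.0-fold lower. Cdk1, the main mitotic kinase, was at 103.71, 87.64 and 104.04 in control and still at 37.68, 38.62 and 46.12 in serum-starved libraries, 2.41-fold lower, while its cyclin partner Ccnb1 went from 20.7 ± 1.86 to 0.507 ± 0.276, 40.8-fold lower. Ccnb1 and Kif4a were below 1 in every serum-starved library, and Top2a, Plk1 and Aurkb in some of them. The ratios of all these genes are imprecise. Mcph1, which encodes an inhibitor of condensin II, moved least, from 5.66 ± 0.329 to 4.48 ± 0.151 (log2 fold change -0.28 ± 0.08 SE; limma, Benjamini-Hochberg adjusted p = 0.0145), and it did not pass under the common-sum scaling (-0.13, adjusted p = 0.251).

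**Figure D5:**
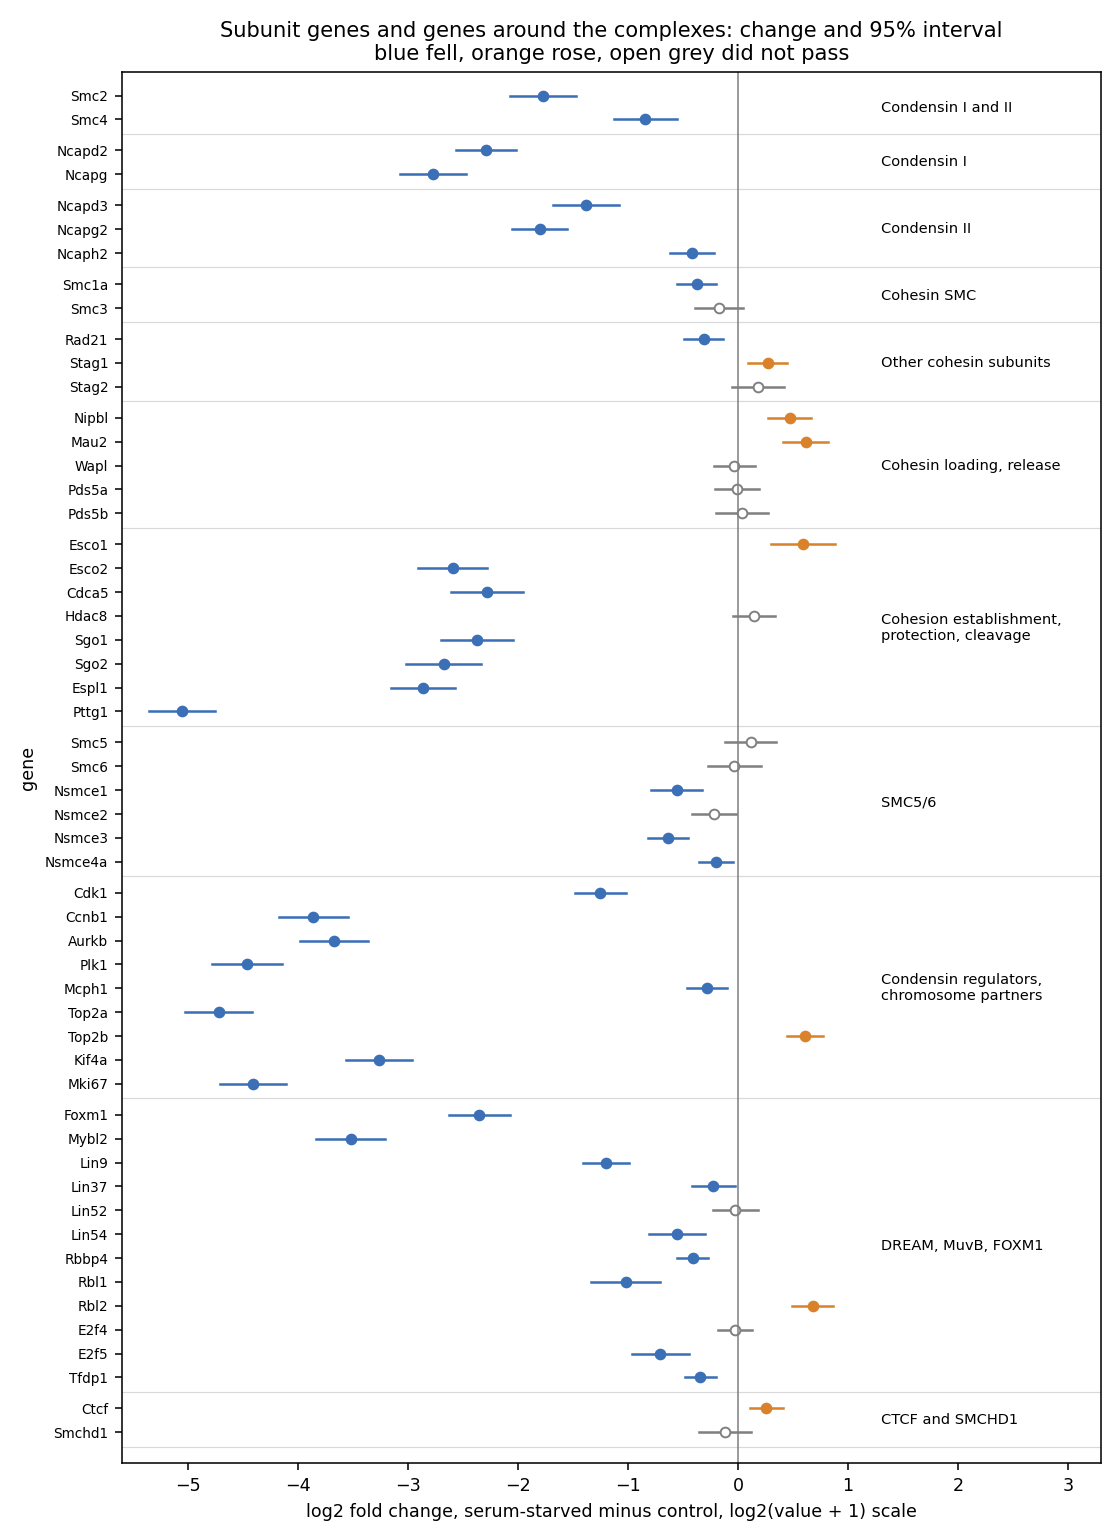
Log2 fold change on the log2(value + 1) scale, negative where serum-starved cells were lower, with its 95% interval for the 9 subunit genes and 45 tested genes around the complexes, grouped by role. Blue points fell, orange points rose and open grey points did not pass at an adjusted p of 0.05; the condensin genes lie between -2.77 and -0.42, and the cohesin core and loading genes between -0.38 and 0.62.

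The SMC5/6 complex, the third SMC complex, which acts in DNA repair and replication, served as a comparison. Its SMC genes Smc5 and Smc6 did not pass, with log2 fold changes of 0.11 and -0.03, but Smc5 passed without control replicate 1 (0.22, adjusted p = 0.0461) and under the common-sum scaling (0.30, adjusted p = 0.0404). Of its other genes, Nsmce1 fell 1.49-fold, Nsmce3 1.61-fold and Nsmce4a 1.16-fold, and Nsmce2 did not pass (limma, Benjamini-Hochberg adjusted p = 0.0569). The call of Nsmce4a was lost without any one of the serum-starved libraries or control replicate 1, with adjusted p between 0.0625 and 0.0928, and under quantile normalization or the common-sum scaling (adjusted p = 0.0603 and 0.815). Nsmce2 passed without control replicate 3 (adjusted p = 0.0106), under median-ratio scaling (0.0296) and with library weights (0.00853).

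Of 12 genes of the DREAM, MuvB and FOXM1 machinery that acts on CHR elements, 9 fell, Rbl2 rose, and Lin52 and E2f4 did not pass (median log2 fold change -0.48). The share of falls among all tested genes was 29.4%. The activator genes Mybl2 and Foxm1 had the lowest log2 fold changes of these: Mybl2 was at 14.51, 9.78 and 13.05 in control and at 0.13, 0.14 and 0.2 in serum-starved libraries, so that it passed the filter through its controls only, and Foxm1 was 7.49-fold lower, from 13.3 ± 2.27 to 1.78 ± 0.104. The pocket protein genes moved in opposite directions, with Rbl1 (p107) 2.44-fold lower and Rbl2 (p130), the usual pocket protein of DREAM, 1.68-fold higher, from 7.69 ± 0.416 to 12.9 ± 1.00 (limma, Benjamini-Hochberg adjusted p = 0.000177). Rbl2 stood at 1.21 ± 0.244 times Rbl1 with serum and at 4.85 ± 0.721 times without it. Among the MuvB core genes Lin9 fell 3.25-fold, Lin54 1.59-fold and Rbbp4 1.34-fold. Lin37 was 1.18-fold lower at an adjusted p = 0.0489, with groups that overlapped, a call lost under 7 of 14 alternatives (adjusted p from 0.0671 to 0.653). E2f5 fell 1.71-fold and Tfdp1 1.28-fold, and Tfdp1 did not pass under the common-sum scaling (-0.16, adjusted p = 0.0791).

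The genes whose profiles were most like those of the complexes were sought among 9047 other tested genes whose larger group mean was 5 or more, by the root mean square distance of their log2(value + 1) values over the 6 libraries, each centred on its control mean. The profile for condensin I averaged 4 chains, including Smc2 and Smc4, which condensin II shares, whereas that for condensin II averaged only its 3 own genes, so the 2 profiles were built differently. Both are means of genes with unlike log2 fold changes, from -2.77 to -0.84 for condensin I and from -1.81 to -0.42 for condensin II. A gene near such a mean need not be near any single subunit gene. The condensin I profile was matched most closely by Wdhd1 (distance 0.034), Ezh2 (0.053), Mcm4 (0.055), Zwilch (0.08) and Zfp367 (0.082). Wdhd1 encodes a replication fork protein, Ezh2 the methyltransferase of Polycomb repressive complex 2, Mcm4 a helicase subunit and Zwilch a kinetochore protein. Wdhd1 went from 9.35 to 1.77 and Mcm4 from 28.1 to 6.54 on average. Closest to the mean profile of the 3 condensin II genes were Dsn1, a kinetochore gene (0.056), Lcorl (0.058), Ssx2ip (0.059), Il18rap (0.06) and the maintenance DNA methyltransferase gene Dnmt1 (0.065). For Smc1a and Smc3 they were Fam69a (0.031), Nab1 (0.046), Tceanc2 (0.05), LOC100911693 (0.052) and Mlec (0.052). Distances of small changes are small for many genes, and likeness over these libraries is mostly likeness of the group difference.

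For the cells themselves, 8 of 10 nucleus pulposus marker symbols were in the tables, and their summed value ran from 494 to 553 in control and from 193 to 209 in serum-starved libraries. Most of the control sum was Cd44 (244.6 on average) and Slc2a1 (141.9). Of the 7 tested, 6 fell, where 29.4% of all tested genes did: Acan, Sox9, Car12, Cd44, Slc2a1 and Foxf1. Of these, Car12 was at or below 0.09 in every serum-starved library and passed the filter through its controls only. Acan, which encodes aggrecan, was between 47.2 and 102.75 in control and between 2.67 and 3.27 in serum-starved libraries. Pax1, a transcription factor of the same list, rose 1.86-fold, reaching 51.2 ± 5.02 against 27.5 ± 3.43 with serum (limma, Benjamini-Hochberg adjusted p = 0.000186). Cd24 was too low to be tested, at 0.0967 ± 0.0513 with serum and 0.437 ± 0.107 without it, and Krt19 and T were not analysed here. The 5 of 6 fibroblast and annulus markers in the tables summed to between 2745 and 3120 in control and 3458 and 3608 in serum-starved libraries, most of it Col1a1, and moved in different directions. Col1a1 rose from 1799 ± 213 to 2697 ± 53.9, Dcn from 26.65 ± 15.4 to 239.8 ± 41.6 and Pdgfra 2.09-fold, Thy1 fell 3.10-fold, and Col1a2 did not pass. The 3 of 5 skeletal muscle markers in the tables summed to between 114 and 138 in control and 12.5 and 16.9 in serum-starved libraries, mostly through Des. Des fell 9.73-fold to 12.9 ± 2.37, Acta1 rose from 0.0633 ± 0.0710 to 1.37 ± 0.283, and Myh1 was at or below 0.03. Acta1 passed the filter through its serum-starved libraries only. Endothelial markers (2 of 5 in the tables) summed to at most 1.05 per library, with Tie1 at 0 in all libraries but serum-starved replicate 2. Blood and macrophage markers (2 of 5) summed to between 1.69 and 2.54 in control and 2.82 and 3.99 in serum-starved libraries, mostly Cd68, which rose 1.73-fold. The part of these shifts in the subunit results was not tested.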

How the data were processed

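RNA sequencing values from 6 libraries were used, 3 serum-starved and 3 control. Per the labels' protocols, ribosomal RNA was removed with probes and cDNA was primed randomly. The deposited tables give 1 value per gene with 2 decimals and no unit in their headers, and the values are treated here as FPKM, since they hold decimals and their library totals differ (447788 to 530095). The tools behind these deposited values are listed by the authors without role or order, per the submitters' processing notes: StringTie, HISAT2, limma, DESeq2 and bcl2fastq 2.0. The build named there is mm10, a mouse build, although the gene IDs are rat (15927 of 17093 found in the GRCr8 table). Strand use and the handling of shared reads are not given in the sources used here. Depth in reads is unknown, so no counting interval is given, and no 2 libraries held near-identical values (at most 0.265% equal among genes at 5 or more).

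Values were analysed as log2(value + 1) in limma 3.58.1 (R 4.3.3) with an intensity trend, treatment as the only term, 4 residual degrees of freedom and Benjamini-Hochberg adjustment over 11493 genes. The fit was tested on simulated data. Ratios used Python 3.11.15, pandas 2.3.3, numpy 2.4.6 and scipy 1.17.1, and plots matplotlib 3.10.9. Alternatives changed the pseudocount, filter, scaling, library weights and block, and left out each library in turn with the same genes tested. The genes named are the 9 subunit genes, 45 tested genes from lists of pathway roles, marker lists, and the 5 genes nearest each mean profile. The subunits and lists were chosen with earlier results of these data known. Ncaph could not enter the third pair ratio or the condensin I profile that were planned.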

Additional observations from a re-analysis of the deposited data

How the results depend on the processing

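Of 72 values of the subunit genes under 8 other settings, 71 kept their direction where called and their side of the threshold, and the exception was Smc1a under the scaling to a common sum of 1000000; 54 of 54 did so when a single library was left out. Under the same scaling, 5579 genes rose against 3640; it raises serum-starved values relative to control and also puts more genes past the filter (12205 tested against 11493), and the parts of these were not separated. The Ncapd2 to Ncapd3 shift of -0.91 was -1.10 with a pseudocount of 0.1, and between -0.997 and -0.832 without single libraries. The Ncapg to Ncapg2 shift of -0.97 was -1.58 with a pseudocount of 0.1 and -1.25 under the common-sum scaling, where the pseudocount weighs less on larger values, and between -0.996 and -0.914 without single libraries. Of 45 genes around the complexes, 27 fell and 7 rose, where 29.4% and 31.7% of all tested genes did. Over all alternatives 22 to 28 of the genes around the complexes fell and 6 to 10 rose, with 47 tested without a filter and 43 with the filter at 5. Replicate numbers are shared between the groups. Deviations from the group means correlated at 0.0367, -0.162 and 0.101 for numbers 1, 2 and 3, and not every library correlated best with its own number. With 3 libraries per group, these correlations cannot decide whether the numbers pair the libraries. With the replicate block 6801 genes changed against 7024, 8 subunit genes fell again, and the call of Nsmce2 was gained (adjusted p = 0.0376). Depth could not be read from the files, so values under 1, such as those of Ncapg without serum, carry an unknown counting error.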
